A study of Mus musculus with 6 samples.

Results

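The genes described here are 10 genes of mouse cation channels that respond to mechanical force, irritants, heat, osmolarity or internal calcium, out of the 54281 genes listed: Piezo1, Piezo2, Trpa1, Trpv1, Trpv2, Trpv4, Trpm2, Trpm4, Trpm7 and Trpc1. They were taken by symbol. All 10 were found by their Ensembl identifiers. The 6 libraries came from wells of GLUTag cells, an established mouse enteroendocrine line from a colonic tumour of mice carrying a T antigen transgene under the proglucagon promoter, used as a model of the L-cell that secretes GLP-1. Replicates 1 to 3 came from plate 1 at passage 23 and the other 3 from plate 2 at passage 27, so that plate and passage cannot be told apart. All wells had the same treatment, which was growth for 48 h on Matrigel in medium with 1 g/L glucose and 10% serum, and there was no treated or knockout group. Nothing in the labels says that wells of a plate came from separate cultures, so p-values measure only the spread between these libraries. The columns of plate 2 could not be matched to single replicates, since their replicate numbers start again at 1 where the labels go on from 4, and these libraries are named here by their total count as lowest, middle and highest.

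Piezo proteins form trimeric channels that open when the membrane is stretched or indented. Piezo2 is the principal touch channel of sensory neurons and is also known from the serotonin-releasing enterochromaffin cells of the gut, whereas Piezo1 is found in many epithelia and vessels. TRP channels are tetramers, and their subfamilies are gated by diverse cues: TRPA1 by electrophilic irritants, TRPV1 by capsaicin and heat, TRPM2 by ADP-ribose and TRPM4 by internal calcium. In enteroendocrine cells, cation entry through such channels depolarises the membrane and raises calcium, which triggers hormone release.

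Sequencing read from the 3′ end of polyadenylated transcripts, so a count stands for a transcript whatever its length, and CPM (counts scaled to a library total of 1000000, from totals of 21399987 to 36488198) were compared between genes as well as between libraries. Annotated ends are given for 9 of the genes as the last 30 bases of the longest coding transcript in GENCODE on GRCm38, written 5′ to 3′ on the transcript strand. The counts are sums over all transcripts of a gene, which can end elsewhere. The genes of Trpm4 and Trpv1 run past the ends printed, to 45302632 and 73261242. Capitals mark the hexamers AATAAA and ATTAAA, which are the common polyadenylation signals, and in Trpv2 a run of A.
Piezo1, chr8:122481698-122481727, minus strand: tatttatacaaacggactgtcacagaccaa
Trpa1, chr1:14872648-14872677, minus strand: gtcttAATAAAgAATAAAgcctgtacagtc
Trpv1, chr11:73261210-73261239, plus strand: attAATAAAATAAActatgtgtgtgtctgc
Trpv2, chr11:62600486-62600515, plus strand: AAAAAAAAAAAAAAAAAAAAAAAAAttact
Trpv4, chr5:114622152-114622181, minus strand: tgctcAATAAAtgtttattctcggtggaca
Trpm2, chr10:77907722-77907751, minus strand: agtggcacagaAATAAAcatttgaataata
Trpm4, chr7:45303155-45303184, minus strand: acagggtggtAATAAAgagagctggtccca
Trpm7, chr2:126791565-126791594, minus strand: taaaagaaATTAAAtttattcttgtttaca
Trpc1, chr9:95705082-95705111, minus strand: aagtgAATAAAagttgacattagatcataa

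Of the 10 genes, 8 held AATAAA or ATTAAA on the transcript strand in these last 30 bases, against 63.2% of 21822 coding genes. The ends of Piezo1 and Trpv2 held neither hexamer, also when the last 60 bases were searched. The end of Trpv2 followed a run of 27 A, and 0.0779% of coding genes had a run at least as long in their last 200 bases. Libraries of this kind are primed with oligo-dT, and where on Trpv2 the reads began was not examined.

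Transcripts of 7 of the 10 genes were above 3 counts in every library, a floor that lay between 0.0822 and 0.140 CPM. Trpm7 and Trpv2 were the most abundant, Trpc1, Trpm4, Trpv1 and Piezo1 lay in the low CPM range, Trpm2 lay just under 1 CPM, and Piezo2, Trpv4 and Trpa1 were at or near the floor. The 10 genes summed to 66.2 ± 14.8 CPM (SD, n = 6), of which Trpm7 and Trpv2 together made up 84.2 ± 3.35%. The share of Trpm7 alone was 55.0 ± 7.29% and that of Trpv2 29.3 ± 6.32%.

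**Figure D1:**
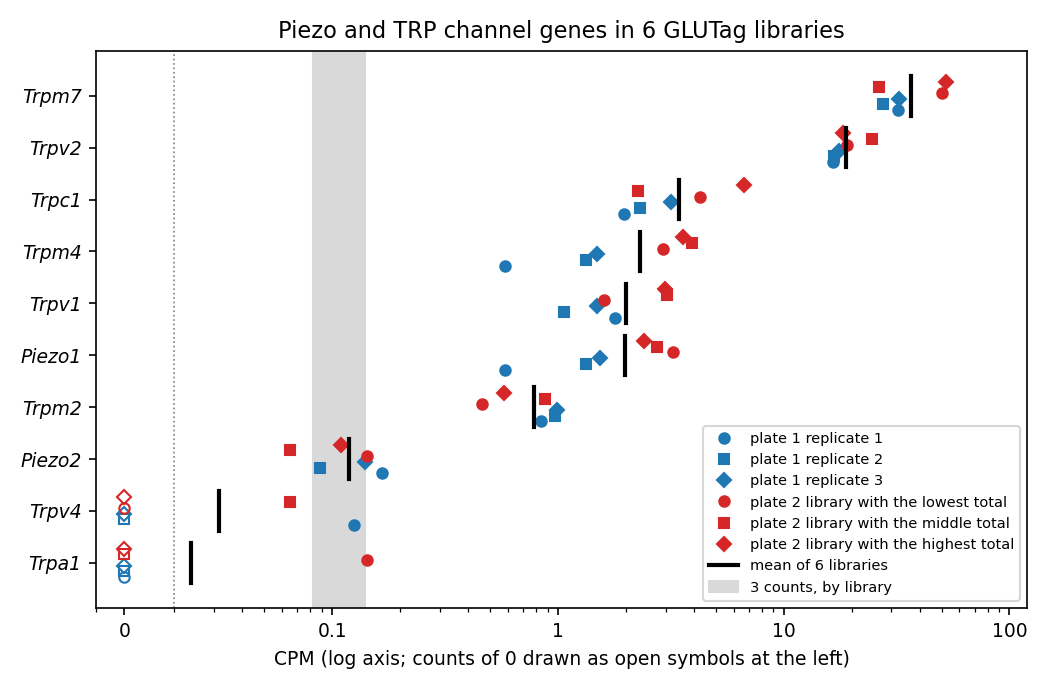
CPM of each gene (log axis) in each of the 6 libraries, blue for plate 1 and red for plate 2, with the mean as a bar and the range of 3 counts in grey. Trpm7 and Trpv2 lie at 16.6 CPM or more in every library, and Piezo2, Trpv4 and Trpa1 lie at or near the floor.

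Trpm7, a channel for magnesium, zinc and calcium that is fused to a protein kinase, was measured at 32.0, 27.5 and 32.2 CPM on plate 1 and at 50.2, 26.5 and 52.1 CPM in the lowest, middle and highest libraries of plate 2. Its mean of 36.8 ± 11.4 CPM (SD, n = 6; 623 to 1900 counts) was above that of 83.9% of the 27044 genes with a count. The lowest and highest libraries of plate 2 stood above the other 4, and the middle library of plate 2 held the lowest value of all. The gene lies at chr2:126791565-126876230 on the minus strand.

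Trpv2, a channel of the vanilloid subfamily that is known from neuroendocrine cells and macrophages and is insensitive to capsaicin, was measured at 16.6, 16.7 and 17.5 CPM on plate 1 and at 19.2, 24.6 and 18.2 CPM on plate 2. The mean was 18.8 ± 3.01 CPM (SD, n = 6; 375 to 761 counts), with the middle library of plate 2 apart from the rest. The plates did not overlap, with plate 2 the higher, as in 35.2% of all genes tested between plates. Trpv2 (chr11:62574486-62600515, plus strand) was above 75.5% of the genes with a count. Its estimated counts were whole in 0 of 6 libraries (within 0.001), which in Salmon arises where reads fit transcripts of more than 1 gene.

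Trpc1, a subunit that assembles with Trpc4 and Trpc5, was measured at 1.96, 2.30 and 3.18 CPM on plate 1 and at 4.24, 2.26 and 6.66 CPM on plate 2, with a mean of 3.43 ± 1.79 CPM (SD, n = 6; 47 to 243 counts). As with Trpm7, the lowest and highest libraries of plate 2 stood above the other 4. Trpm4, a channel that is opened by internal calcium and passes sodium and potassium but not calcium, gave 0.583, 1.33 and 1.495 CPM on plate 1 and 2.92, 3.91 and 3.59 CPM on plate 2 (2.30 ± 1.36 CPM; 14 to 131 counts). The plates did not overlap for Trpm4, with plate 2 the higher, as in 35.2% of all genes tested between plates. Trpv1, the capsaicin receptor, gave 1.79, 1.06 and 1.495 CPM on plate 1 and 1.60, 3.04 and 2.99 CPM on plate 2 (1.996 ± 0.824 CPM; 24 to 109 counts), and the plates overlapped.

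Piezo1 was measured at 0.583, 1.33 and 1.54 CPM on plate 1 and at 3.24, 2.75 and 2.41 CPM on plate 2, a mean of 1.98 ± 0.994 CPM (SD, n = 6; 14 to 91 counts). All libraries of plate 2 lay above all of plate 1, as in 35.2% of all genes tested between plates. Replicate 1 of plate 1 was the lowest. The 3′ end of Piezo1 (chr8:122481698-122551329, minus strand) overlaps by 2441 bases with Ctu2, which lies on the plus strand at chr8:122476143-122484138, and the strand setting of the counting is not given in the sources used here. Ctu2, which takes part in tRNA modification, was at 28.0 ± 2.37 CPM (SD, n = 6), and ranged from 26.5 to 32.8 CPM over the libraries. Estimated counts of Piezo1 and Ctu2 were whole in 6 of 6 libraries (within 0.001), and sharing of reads between them was not tested. Trpm2, which is opened by ADP-ribose under oxidative stress, gave 0.838, 0.972 and 0.989 CPM on plate 1 and 0.463, 0.873 and 0.576 CPM on plate 2 (0.785 ± 0.217 CPM; 13 to 27 counts).

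The other 3 genes were at or near the limit of detection. Piezo2, on chromosome 18, had 4, 2 and 3 counts on plate 1 and 4, 2 and 4 counts on plate 2, a sum of 19 counts of 163512770 (95% exact Poisson interval 11.4 to 29.7). Such intervals cover counting error only. Trpv4, an osmosensitive channel, had 3 counts in replicate 1 of plate 1, 2 counts in the middle library of plate 2 and 0 in the other 4 libraries, a sum of 5 counts (1.62 to 11.7). Trpa1 had 4 counts in the lowest library of plate 2 and 0 in the other 5 libraries, a sum of 4 counts (1.09 to 10.2). In a single library a count of 0 allows up to 3 counts by a one-sided 95% limit, and up to 3.69 by the two-sided interval. A 0 thus does not show that the transcript was absent.

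Neighbours in the order of mean level were compared within each library as the difference of log2(CPM + 1). The signs of the 6 differences were flipped in all combinations (exact permutation test, two-sided), for which 0.03125 is the smallest p possible. Trpm7 was above Trpv2 in 6 of 6 libraries, by 0.89 ± 0.49 (SD), and Trpv2 was above Trpc1 in 6 of 6, by 2.23 ± 0.57. Trpm2 was above Piezo2 in 6 of 6 libraries, by 0.67 ± 0.20. In each of these 3 pairs the exact p was 0.03125, which became 0.09375 after Benjamini-Hochberg adjustment over the 9 pairs. No neighbouring pair thus passed the adjusted threshold of 0.05, although the values of these 3 pairs did not change order in any library. With 9 pairs, any could pass only if most of them had the smallest p possible, so this test could hardly separate neighbours. The order was also taken from these same libraries, so the direction of the differences was largely set by it. The size of such a difference depends on the pseudocount, most of all for low genes: that between Trpm2 and Piezo2 was 2.00 with 0.1 CPM and 0.18 with 5 CPM added, and the ratio of their mean CPM was 6.62.

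Trpc1, Trpm4, Trpv1 and Piezo1 changed places between libraries. Trpc1 was above Trpm4 in 5 of 6 libraries, by 0.45 ± 0.54 on the log2(CPM + 1) scale (exact permutation p = 0.125, adjusted p = 0.1875). Trpm4 was above Trpv1 in 4 of 6, by 0.07 ± 0.48, and Trpv1 above Piezo1 in 3 of 6, by 0.04 ± 0.50 (exact permutation p = 0.75 and adjusted p = 0.84375 in both pairs). Piezo1 was above Trpm2 in 5 of 6 libraries, by 0.67 ± 0.65 (exact permutation p = 0.0625, adjusted p = 0.1125), and the difference was 0.13 on plate 1 and 1.22 on plate 2. Piezo2 against Trpv4, at 0.12 ± 0.08, and Trpv4 against Trpa1, at 0.01 ± 0.12, rested on few counts (exact permutation p = 0.0625 and 1).

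Members of the same subfamily or subunit partners were compared by the same test in 7 pairs, and in each pair the first gene was higher in 6 of 6 libraries (exact permutation p = 0.03125, adjusted p = 0.03125). For Trpm6, at 0 counts throughout, this outcome was fixed. In the pairs with Trpv4 and Trpc5 it was all but fixed, since the second gene had at most 3 and 1 counts. Piezo2 and Trpm5 were also low, with at most 4 and 6 counts against at least 14 for Piezo1 and Trpm4. All 7 p were the smallest possible, so the adjustment left them unchanged, and the genes were chosen with earlier results of these data known. At most the pairs of Trpv2 with Trpv1 and of Trpc1 with Trpc4 are thus informative. The 7 pairs did not include Trpc1 and Trpc6, of which Trpc6 was the higher in 6 of 6 libraries, with means of 3.43 and 17.6 CPM. Piezo1 exceeded Piezo2 by 1.34 ± 0.55 (SD) on the log2(CPM + 1) scale, with a range from 0.44 to 1.89 over libraries, and the ratio of their mean CPM was 16.6. With a pseudocount of 0.1 or 5 CPM the difference was 3.09 or 0.43. Trpv2 exceeded Trpv1 by 2.76 ± 0.29 and Trpv4 by 4.25 ± 0.21, and its mean CPM was 9.42 times that of Trpv1. The vanilloid transcripts were thus mostly Trpv2 in each library, with Trpv5 and Trpv6, the calcium channels of absorptive epithelia, at 0 counts throughout.

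Trpm4 exceeded Trpm5, its close relative in taste and tuft cells, by 1.53 ± 0.62 on the log2(CPM + 1) scale, and Trpm5 had at most 6 counts in any library. Trpm6, the other channel with a kinase domain, had 0 counts in 6 of 6 libraries. Against 3 counts per library, the one-sided limit for a count of 0, Trpm7 was at least 207.7-fold higher in the library with the smallest bound. Trpc1 exceeded Trpc4 by 0.72 ± 0.40 and Trpc5 by 2.05 ± 0.53. Trpc4 was at 1.57 ± 0.427 CPM (SD, n = 6) and Trpc5 had at most 1 count.

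**Figure D2:**
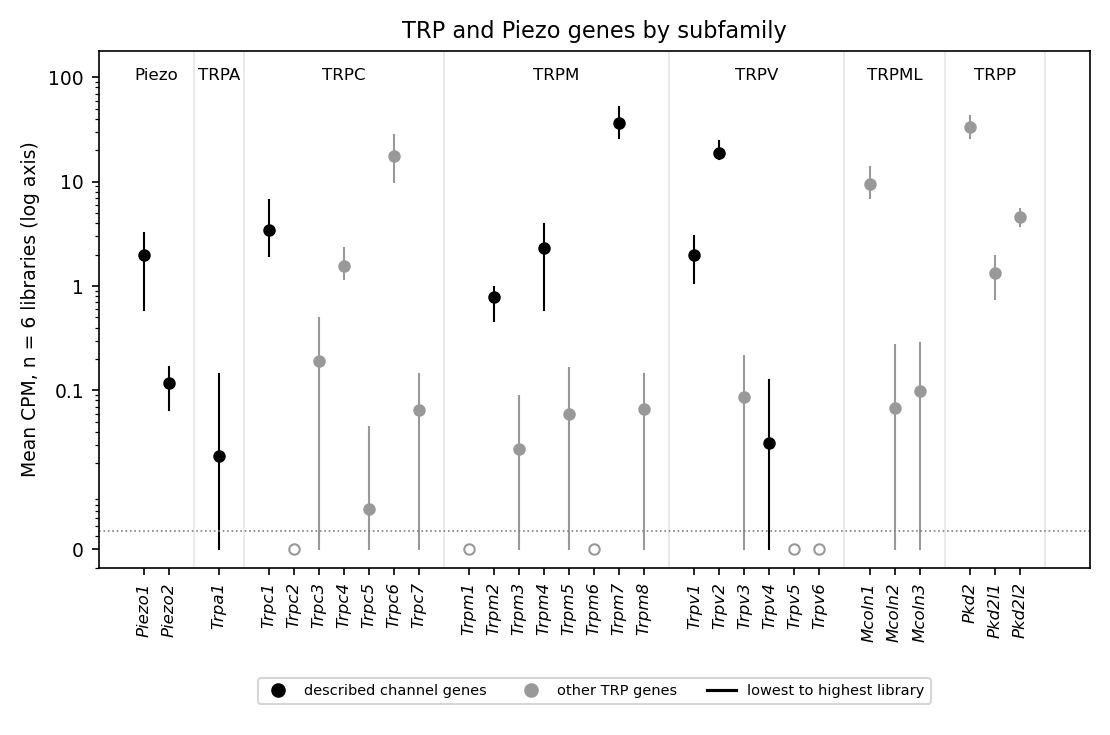
Mean CPM (log axis, n = 6 libraries) of the Piezo and TRP genes by subfamily, black for the 10 genes described and grey for other TRP genes, with lines from the lowest to the highest library and open circles for genes with 0 counts throughout. Trpm7, Trpv2, Pkd2 and Trpc6 are the TRP genes with means of 17.6 CPM or more.

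Of the other 20 TRP genes, 6 were above 3 counts in every library, 13 never exceeded 10 counts and 5 of these had none. The highest were Pkd2, the polycystin channel of primary cilia and the endoplasmic reticulum, at 33.7 ± 6.86 CPM (SD, n = 6), Trpc6, a diacylglycerol-gated channel, at 17.6 ± 6.76 CPM, and Mcoln1, the lysosomal calcium channel, at 9.57 ± 2.48 CPM. The mean of Pkd2 lay between those of Trpv2 and Trpm7, and that of Trpc6 below both.

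Of 21 other genes of mechanically gated channels and their relatives, 13 were above 3 counts in every library. Asic2, an acid-sensing channel subunit, was at 42.0 ± 4.62 CPM, Tmem63b, an osmotically and mechanically gated channel, at 36.3 ± 6.93 CPM, and Asic1 at 18.6 ± 3.84 CPM (SD, n = 6). The mean of Piezo1, at 1.98 CPM, was below each of these. Of 7 partners and regulators of Piezo channels, 4 were above 3 counts in every library, led by the calcium pump Atp2a2 at 128 ± 45.1 CPM, the phosphatase Mtmr2 at 32.7 ± 4.11 CPM and Tmem150c at 3.51 ± 0.545 CPM. Mdfic, an auxiliary subunit of Piezo channels, had at most 1 count, its relative Mdfi at most 3 and Stoml3, which tunes Piezo channels in touch neurons, at most 1.

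Among 13 genes of phospholipase C and the second messengers of TRP channels, 12 were above 3 counts in every library. Cd38, which makes cyclic ADP-ribose and ADP-ribose, had 0 counts in all 6 libraries, whereas Parp1, whose product is a source of ADP-ribose through its polymer, was at 143 CPM.

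The labelled cell type was checked by markers. All 7 L-cell and enteroendocrine markers were above 3 counts in every library, led by Gcg, the proglucagon gene, at 3416 CPM, and the 7 summed to 4099 to 4849 CPM on plate 1 and 4750 to 6503 CPM on plate 2. Of 3 enterochromaffin markers 1 passed, the vesicular monoamine transporter Slc18a1 at 5.87 CPM, and Tph1, the enzyme of serotonin synthesis, had at most 4 counts. Of 8 sensory neuron markers 3 passed, Scn9a, Tac1 and Pou4f1, while Scn10a had at most 2 counts. Fibroblast, endothelial, leukocyte and absorptive markers passed in 1 of 6, 1 of 4, 1 of 6 and 3 of 5 genes, namely Col1a2 at 5.87 CPM, Pecam1 at 43.0 CPM, Cd68 at 0.633 CPM, and Vil1, Alpi and Apoa1 at 2.13, 0.659 and 0.410 CPM, while Col3a1 and Tek had 0 counts in every library.

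The plates were compared with edgeR's quasi-likelihood test across 15669 genes, in which 29 genes, 0.185% of those tested, had an adjusted p under 0.05. With the replicate number of the columns as a block, a fit chosen after seeing the data, there were 5 genes. In both fits none of the 7 genes tested was among them, and Piezo2, Trpv4 and Trpa1 were too low to be tested. At an unadjusted p under 0.05 there were 2 of the 7, Piezo1 and Trpm4, against 16.1% of all genes tested. The log2 fold change of plate 2 over plate 1 was above 0 in 6 of the 7, with a median of 0.55, against 0.03 over all genes tested. Since the latter is above 0, a majority of all genes tested lay above 0 too. Totals were 21399987 to 23994226 on plate 1 and 28083507 to 36488198 on plate 2. Genes with a count numbered 19813 to 20989 and 22119 to 22487. Depth and plate thus cannot be told apart, and the part of depth was not tested.

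Trpm4 had the largest difference, with means of 1.13 ± 0.485 CPM on plate 1 and 3.47 ± 0.507 CPM on plate 2 (SD, n = 3) and a log2 fold change of 1.35 (SE 0.36, edgeR adjusted p = 0.136). Under DESeq2, total count scaling and no filter on low counts its adjusted p passed the threshold, and over all alternatives it ranged from 0.017 to 0.405. In these 3 settings 579 of 15669, 1482 of 15669 and 545 of 27022 genes tested were past the threshold. Piezo1 had means of 1.15 ± 0.503 and 2.80 ± 0.417 CPM and a log2 fold change of 1.02 (SE 0.37, edgeR adjusted p = 0.224, 0.0597 to 0.514 over the alternatives). Ctu2, which overlaps the end of Piezo1, had a log2 fold change of -0.18 (SE 0.14, edgeR adjusted p = 0.591).

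In plain CPM, 3 of the 7 genes, Piezo1, Trpm4 and Trpv2, had all plate 2 libraries above all plate 1 libraries, against 35.2% of all genes tested, and total count scaling moved the median log2 fold change of all genes to 0.30. After TMM scaling, which sets that median near 0, Piezo1 and Trpm4 kept this order, against 12.8% of genes, and Trpv2 did not. Trpm2 had all plate 2 libraries below plate 1 after TMM scaling, against 12% of genes. Its means were 0.933 ± 0.0827 and 0.637 ± 0.212 CPM (SD, n = 3) and its log2 fold change -0.80 (SE 0.42, edgeR adjusted p = 0.396).

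The summed levels of some marker lists also differed between the plates in plain CPM, in which 35.2% of all genes tested were higher in every plate 2 library. The 6 leukocyte markers summed to 0.542 to 0.795 CPM on plate 1 and 1.47 to 1.96 CPM on plate 2, of which Cd68, a lysosomal protein of macrophages and other cells, made up 0.371 and 0.895 CPM in the mean, with Ptprc, the leukocyte common antigen, at most 4 counts in any library. The 4 endothelial markers went the other way, from 39.6 to 99.9 CPM on plate 1 and from 3.60 to 32.7 CPM on plate 2, nearly all of it Pecam1, with Tek at 0 counts and Cdh5 at most 3. Only Cd68 and Pecam1, 1 gene of each list, were high enough to be tested and neither passed the threshold, and the part of these lists in the differences of Piezo1, Trpm4 and Trpm2 was not tested. In these bulk wells, fewer cells with a transcript and less transcript per cell cannot be told apart.

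**Figure D3:**
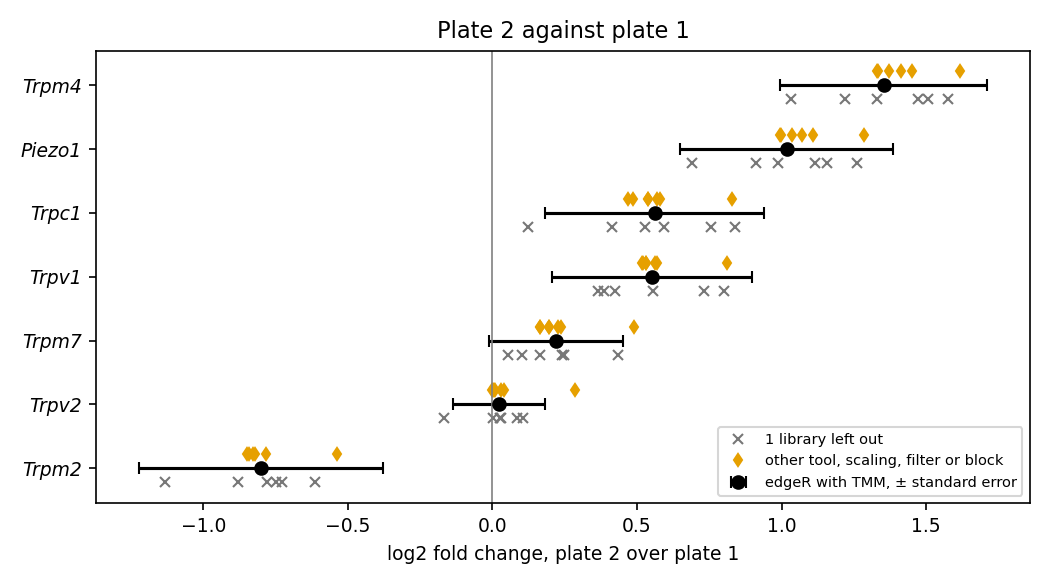
Log2 fold change of plate 2 over plate 1 for the 7 genes tested, as edgeR estimates with standard errors (black), with 1 library left out (crosses) and with another tool, scaling or filter or a replicate block (diamonds). Trpm4 and Piezo1 lie above 0 in all settings, Trpm2 below 0, and Trpv2 on either side of it.

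Trpm7, Trpc1, Trpv1 and Trpv2 had log2 fold changes of 0.22 (SE 0.23), 0.56 (SE 0.38), 0.55 (SE 0.35) and 0.02 (SE 0.16), with edgeR adjusted p of 0.703, 0.517, 0.483 and 0.968. Without the middle library of plate 2 Trpm7 passed the threshold, at an edgeR adjusted p of 0.0183 and a log2 fold change of 0.44 (SE 0.11). In that fit 1911 of the 15894 genes tested were past the threshold. Over all alternatives the adjusted p of Trpm7 ranged from 0.0183 to 0.944.

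The middle library of plate 2 was compared with the average of the lowest and highest libraries on the log2(CPM + 1) scale. Trpm7 differed by -0.93 and Trpc1 by -0.98, and 8.03% and 7.20% of 13516 genes were as low or lower. Trpv2 differed by 0.38, Trpm2 by 0.30, Trpv1 by 0.29, Trpm4 by 0.21 and Piezo1 by -0.03, and the median gene by -0.03. The last 200 bases of Trpm7 and Trpc1 had a GC content of 28.5% and 27.5%, the lowest among the 10 genes, against a median of 40.5% over coding genes (quartiles 33.5% and 47.5%). Those of Trpv1, Trpv2, Trpm2, Piezo1 and Trpm4 were at 35.5%, 43.5%, 44%, 52.5% and 57%. The part of base composition in these differences was not tested. Other libraries departed from their plates as well: in replicate 1 of plate 1 Piezo1 differed by -0.62 and Trpm4 by -0.61 from the average of replicates 2 and 3, with 1.46% and 1.55% of genes as low or lower, and in the lowest library of plate 2 Trpv1 differed by -0.63, with 0.651%. In the highest library of plate 2 Trpc1 differed by 0.85 from the average of the other libraries on its plate, with 2.53% of genes as high or higher, so the departure of its middle library is measured against unequal values.

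**Figure D4:**
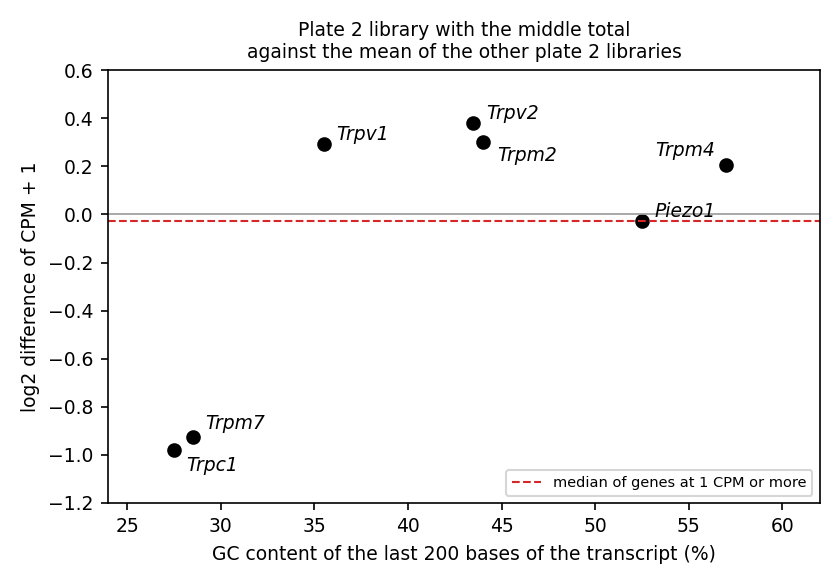
Difference of log2(CPM + 1) between the middle library of plate 2 and the mean of the other plate 2 libraries, against the GC content of the last 200 bases of the transcript, for the 7 genes tested. Trpm7 and Trpc1 lie at GC contents of 28.5% and 27.5% with differences of -0.93 and -0.98, and the dashed line is the median gene.

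Genes with the pattern most like that of Piezo1 over the 6 libraries, by Pearson's r of log2(CPM + 1) among genes of at least 10 CPM, were Cenpt (r = 0.991), Gpn1 (r = 0.980) and Haus2 (r = 0.979). For Trpm7 they were Tpp2 (r = 0.999), Tcf20 (r = 0.997) and Rundc3b (r = 0.996). The 6 points come from 2 plates, and 3.53% of 8658 genes had an r above 0.9 with Piezo1 and 9.95% of 8657 with Trpm7, so these values are a description.

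Promoters from RefSeq on GRCm38.p6, from 250 bases before to 50 after each start, were at hand for 7 of the 10 genes. The dinucleotide CG, of which many copies mark a CpG island, occurred 35 times in that of Trpm7, 34 times in Piezo1, 30 times in Trpv4, 22 times in Trpc1 and 15 times in Trpm2, but 4 times in Trpv1 and 2 times in Trpv2, with a median of 7 over 27025 promoters. As many or more were held by 6.73% of promoters for Trpm7 and by 85.4% for Trpv2, the most abundant pair, and by 11.5% for Trpv4, which was at or near the floor.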

How the data were processed

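Expression was measured in 6 GLUTag libraries by 3′ mRNA sequencing (QuantSeq FWD). The authors trimmed reads with Trim Galore 0.6.4, assigned them with Salmon 1.5.1 to GRCm38 (GENCODE M23) without length correction and obtained gene sums through Tximeta. What they deposited are expected counts, which need not be whole and were not normalized. Totals lay between 21399987 and 36488198 per library.

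Counts were divided by the library total to give CPM, and rounded for edgeR and DESeq2. Symbols and positions are from GENCODE M21 on GRCm38, in which 54107 of 54281 identifiers were found. Genes were compared within a library by an exact sign-flip permutation test, and plates by the robust quasi-likelihood test of edgeR 4.0.16 after filterByExpr and TMM scaling, with Benjamini-Hochberg adjustment over all genes. DESeq2 1.42.0, limma-voom 3.58.1, other scalings, filters and pseudocounts, and the omission of each library, were alternatives. The columns of each plate are numbered 1 to 3, which the labels do not explain. Deviations from the plate mean of same-numbered libraries correlated over 12360 genes with r of 0.134, 0.148 and 0.186 (other pairs -0.171 to -0.0354), so a fit with this number as a block was added after seeing the data. R 4.3.3, Python 3.11.15 and scipy 1.17.1 were used.

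The members and lists were chosen with earlier results of these data known. Named are all 10 members and, of each list, the genes of the 7 pairs, the highest 3 by mean CPM and any past the threshold; for Piezo1 and Trpm7 the 3 genes most like them. Mdfic, Mdfi, Stoml3, Cd38, Parp1, Trpv5, Trpv6, Ctu2 and single markers were named after their values were seen. The highest 3 genes of the phospholipase C and second messenger list are not reported here.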

Additional observations from a re-analysis of the deposited data

Results flagged for a closer look

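Of the 7 genes averaging 10 counts or more, 1 had a library that stood apart from the other 5. Trpv2 was at 24.6 CPM in the middle library of plate 2, against 16.6 to 19.2 CPM in the others, a gap of 0.681 of the whole range where Dixon's limit for 6 libraries is 0.625. The mean without that library was 17.6 CPM. Chance alone gives about 1 in 20 such flags per gene.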

How the results depend on the processing

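The number of the 10 genes past the threshold between plates was 0, and it was 1 with DESeq2, with total count scaling and without a filter on low counts (Trpm4 each time) and ranged from 0 to 1 when 1 library was left out (Trpm7 without the middle library of plate 2). The log2 fold change of Trpv2 was -0.17 without that library and ranged from -0.17 to 0.11 over the omissions. The direction of the other 6 genes held in all alternatives run, and with a filter of 1 CPM in every library Piezo1, Trpm4 and Trpm2 were not tested. The count over all genes, 29 (2 higher and 27 lower on plate 2), was 579 with DESeq2 (154 higher), 10 with limma-voom, 1482 with total count scaling (1411 higher and 71 lower), 545 without a filter (255 higher), 34 with DESeq2 size factors and 23 with the 1 CPM filter. Genes tested numbered 15669, but 27022 without a filter and 12362 with the 1 CPM filter. When 1 library was left out the count ranged from 0 to 1911, with 15894 to 16437 genes tested. It was 0 in edgeR without replicate 1 of plate 1 (1611 genes at an unadjusted p under 0.05) and without the lowest library of plate 2 (2121 genes).

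On plate 1 alone the mean levels of Trpm4 and Piezo1 were 1.13 and 1.15 CPM, against 2.30 and 1.98 CPM over all libraries. The level of Trpa1 was 0 without the lowest library of plate 2, and that of Trpv4 was 0.0129 CPM, in place of 0.0316 CPM, without replicate 1 of plate 1. Pseudocounts and scalings cannot change which of a pair of genes is higher within a library. For the neighbours and the 7 pairs they bear on the size of a difference and, where libraries differ in order, on its p. With 0.1 CPM added, the adjusted exact permutation p of Piezo1 against Trpm2 was 0.169 in place of 0.1125. No call changed under the pseudocounts and scalings run. With 5 libraries the smallest exact p is 0.0625, so omission cannot test the neighbours or the 7 pairs. The differences between Trpm4 and Trpv1, between Trpv1 and Piezo1 and between Trpv4 and Trpa1 changed sign on leaving out 1 library. Depth limits Piezo2, Trpv4 and Trpa1, each at most 4 counts in any library. With the replicate block the count over all genes was 5 and that of the 10 genes 0, and the block changed the call of none of the 7 genes tested.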
